A study of Mus musculus with 6 samples.

Results

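The 8 genes described here handle cholesterol and lipoproteins. They comprise the carriers Apoe (ENSMUSG00000002985) and Clu (ENSMUSG00000022037), the sterol exporters Abca1 (ENSMUSG00000015243) and Abcg1 (ENSMUSG00000024030), the lipoprotein receptors Lrp1 (ENSMUSG00000040249) and Vldlr (ENSMUSG00000024924), the lipase Lpl (ENSMUSG00000015568) and the transcription factor gene Srebf2 (ENSMUSG00000022463). They were chosen by symbol from the 32285 genes in the files, and all 8 were found. They were measured by single nucleus RNA sequencing (snRNA-seq) in retinas of rd10 mice (strain B6.CXB1-Pde6b-rd10/J), which lose photoreceptors because of a mutation in the rod phosphodiesterase gene Pde6b. The saline control group (3 libraries, replicates 1, 2 and 6) and the IL-27 treated group (3 libraries, replicates 4, 5 and 10) both carried this mutation. Mice received 1 intravitreal injection of saline or of 20 ng recombinant IL-27, a cytokine, at P18, and retinas were taken at P20. The comparison asks whether the cytokine changed these genes in any retinal cell type at this age. The labels give neither uninjected nor wild-type retinas, and they do not say that the libraries came from separate mice, so p-values measure the spread between these libraries.

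The retina makes part of its cholesterol and takes up the rest from lipoproteins, and its glia pass sterol to neurons on lipoprotein particles. Abca1 in the plasma membrane loads cholesterol and phospholipid onto lipid-poor apolipoproteins such as Apoe and clusterin, the product of Clu, and Abcg1 passes further sterol to the particle. Lrp1 and Vldlr take up Apoe-containing particles, Lpl releases fatty acids from their triglycerides, and Srebf2 encodes the factor that turns on sterol synthesis and the LDL receptor when membrane sterol is low. The exporters are classical targets of the liver X receptors (LXR), which sense oxysterols, whereas Srebf2 activity rises when sterol falls.

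The promoters of Abca1 and Srebf2 are shown because these genes stand for the opposite arms of sterol sensing. The windows run 300 bases, from 250 before to 50 after the gene start, and come from RefSeq on build GRCm38.p6. In the Abca1 window (chr4:53159846-53160145, minus strand) capitals mark the E-box CACGTG and, on the antisense strand, an LXR-type direct repeat, searched as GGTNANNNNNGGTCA. In the Srebf2 window (chr15:82147019-82147318, plus strand) capitals mark a sterol regulatory element searched as TCACNCCA and, on the antisense strand, a CCAAT box.
Abca1: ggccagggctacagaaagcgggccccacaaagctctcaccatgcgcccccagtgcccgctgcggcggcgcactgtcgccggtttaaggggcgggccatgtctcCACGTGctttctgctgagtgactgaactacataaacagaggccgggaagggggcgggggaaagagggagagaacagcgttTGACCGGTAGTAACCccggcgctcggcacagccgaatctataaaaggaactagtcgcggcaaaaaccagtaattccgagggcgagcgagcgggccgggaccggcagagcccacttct
Srebf2: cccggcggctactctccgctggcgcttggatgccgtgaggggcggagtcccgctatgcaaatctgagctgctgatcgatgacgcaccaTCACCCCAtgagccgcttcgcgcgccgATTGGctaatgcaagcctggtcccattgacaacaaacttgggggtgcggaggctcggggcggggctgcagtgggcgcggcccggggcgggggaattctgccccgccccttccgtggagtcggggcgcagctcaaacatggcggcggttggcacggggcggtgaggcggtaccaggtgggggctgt

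The LXR-type repeat in the Abca1 window begins 67 bases before the start, and 68 of 32851 promoter windows (0.207%) held these letters on either strand. The E-box was in 7.15% of windows, the sterol regulatory element in 4.36%, and the CCAAT box in 37.4%. In the Srebf2 window the sterol element begins 162 bases before the start and the CCAAT box 135 bases before it, and no searched motif overlapped another. The sterol element was also found in an Apoe window and the CCAAT box in a Vldlr window. Entries were found for 5 of the 8 genes (8 windows), and Clu, Abcg1 and Lpl had none. These are matches of letters only.

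The 6 libraries held 36678332 to 48260748 UMIs (unique transcript counts), and 52234 nuclei were retained, 26149 saline and 26085 IL-27. Any 2 libraries shared 18 to 30 barcodes, of which 0 had the same counts. Clusters carrying at least 3 of the listed markers were named as Muller glia (5446 nuclei), microglia (1561), astrocytes (292), rods (15559), cones (3332), bipolar cells (BC, 10436), amacrine cells (AC, 12589), horizontal cells (HC, 494), retinal ganglion cells (RGC, 2179), endothelial cells (233) and pericytes (113). The microglia cluster also held other immune nuclei, among them 390 with Ccr2, 106 with Flt3 and Ccr7, and 101 with Lck. Muller glia included a cluster of 678 nuclei with Fbln1 and Slc6a13 that made up 11.9 to 21.7% of Muller nuclei in saline libraries, 1.49 and 0.719% in IL-27 replicates 4 and 5, and 13.6% in IL-27 replicate 10. It is called the saline-enriched cluster below, and log2FC values of Muller glia are also given without it. This cluster met the marker rule for Muller glia. Without doublet removal its nuclei lay in the cluster named pericytes, and whether they are Muller glia was not tested. Xist was at 2055 CPM in saline replicate 2 and 2007 CPM in IL-27 replicate 5 and at 0.162 to 0.422 CPM in the other 4 libraries.

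Each level below is in CPM, which relates a gene's summed UMIs to all UMIs of the nuclei of a type in 1 library, given as mean ± SD of 6 libraries. Apoe, the main apolipoprotein of the retina, was highest in microglia (3654 ± 634 CPM) and next in Muller glia (1388 ± 271 CPM), and the ranges of these 2 types did not overlap. Astrocytes (943 ± 153 CPM) and rods (885 ± 121 CPM) followed, and they did not differ beyond their spread. The lowest levels were in HC (131 ± 26.8 CPM) and RGC (127 ± 19.7 CPM), which also overlapped. Clu, an extracellular chaperone and apolipoprotein, was highest in Muller glia (460 ± 69.7 CPM), above astrocytes (338 ± 32.8 CPM) in 6 of 6 libraries although the ranges overlapped. Clu in rods was 186 ± 30.7 CPM, and in microglia, where Apoe was at its highest, it was 112 ± 22.3 CPM, overlapping with endothelial cells (119 ± 47.7 CPM).

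The exporters shared only their highest type. Abca1 was at 847 ± 115 CPM in microglia and 474 ± 92.7 CPM in Muller glia, with microglia above Muller glia in 6 of 6 libraries. Endothelial cells had 356 ± 35.8 CPM, astrocytes 226 ± 61.5 CPM and HC 179 ± 30.8 CPM, and the next neuron type was BC at 87.6 ± 7.25 CPM. The lowest Abca1 level was in RGC at 11.03 ± 1.84 CPM. Abcg1 was at 207 ± 33.5 CPM in microglia, 110 ± 5.25 CPM in cones and 76.5 ± 5.31 CPM in rods. Muller glia, second for Abca1, had an Abcg1 level of 46.8 ± 4.94 CPM and ranked eighth, and astrocytes had the lowest at 7.89 ± 6.38 CPM.

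The receptors divided glia from photoreceptors. Lrp1, a large endocytic receptor for many ligands, was highest in microglia (355 ± 54.8 CPM), followed by pericytes (177 ± 77.5 CPM), astrocytes (133 ± 26.9 CPM) and Muller glia (122 ± 10.2 CPM), each of which overlapped with the next. Rods had 17.8 ± 2.34 CPM of Lrp1 and cones 8.05 ± 3.36 CPM, the lowest of the 11 types. Vldlr, which in photoreceptors mediates fatty acid uptake, showed its highest levels there: 179 ± 13.2 CPM in rods and 177 ± 17.2 CPM in cones, indistinguishable from each other and with no overlap with BC at 80.9 ± 2.30 CPM. AC had 51.0 ± 2.46 CPM and Muller glia 14.6 ± 3.04 CPM.

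Lpl was scarce, with 3148 UMIs in all retained nuclei, and AC contributed 73.0% of the UMIs of the named types. Its level was 29.3 ± 4.27 CPM in AC and 29.1 ± 9.48 CPM in microglia, which overlapped, then 11.7 ± 3.01 CPM in RGC and 8.22 ± 1.46 CPM in rods. It was not detected in endothelial cells, where 0 UMIs in the summed libraries allow a level of up to 4.58 CPM (3 counts; counting error only). Srebf2 was found in all 11 types, from 22.0 ± 2.66 CPM in BC to 103 ± 10.5 CPM in AC. AC, astrocytes (99.8 ± 34.2 CPM) and RGC (84.5 ± 7.34 CPM) overlapped in that order, and RGC stood clear of Muller glia at 56.1 ± 5.09 CPM.

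**Figure D1:**
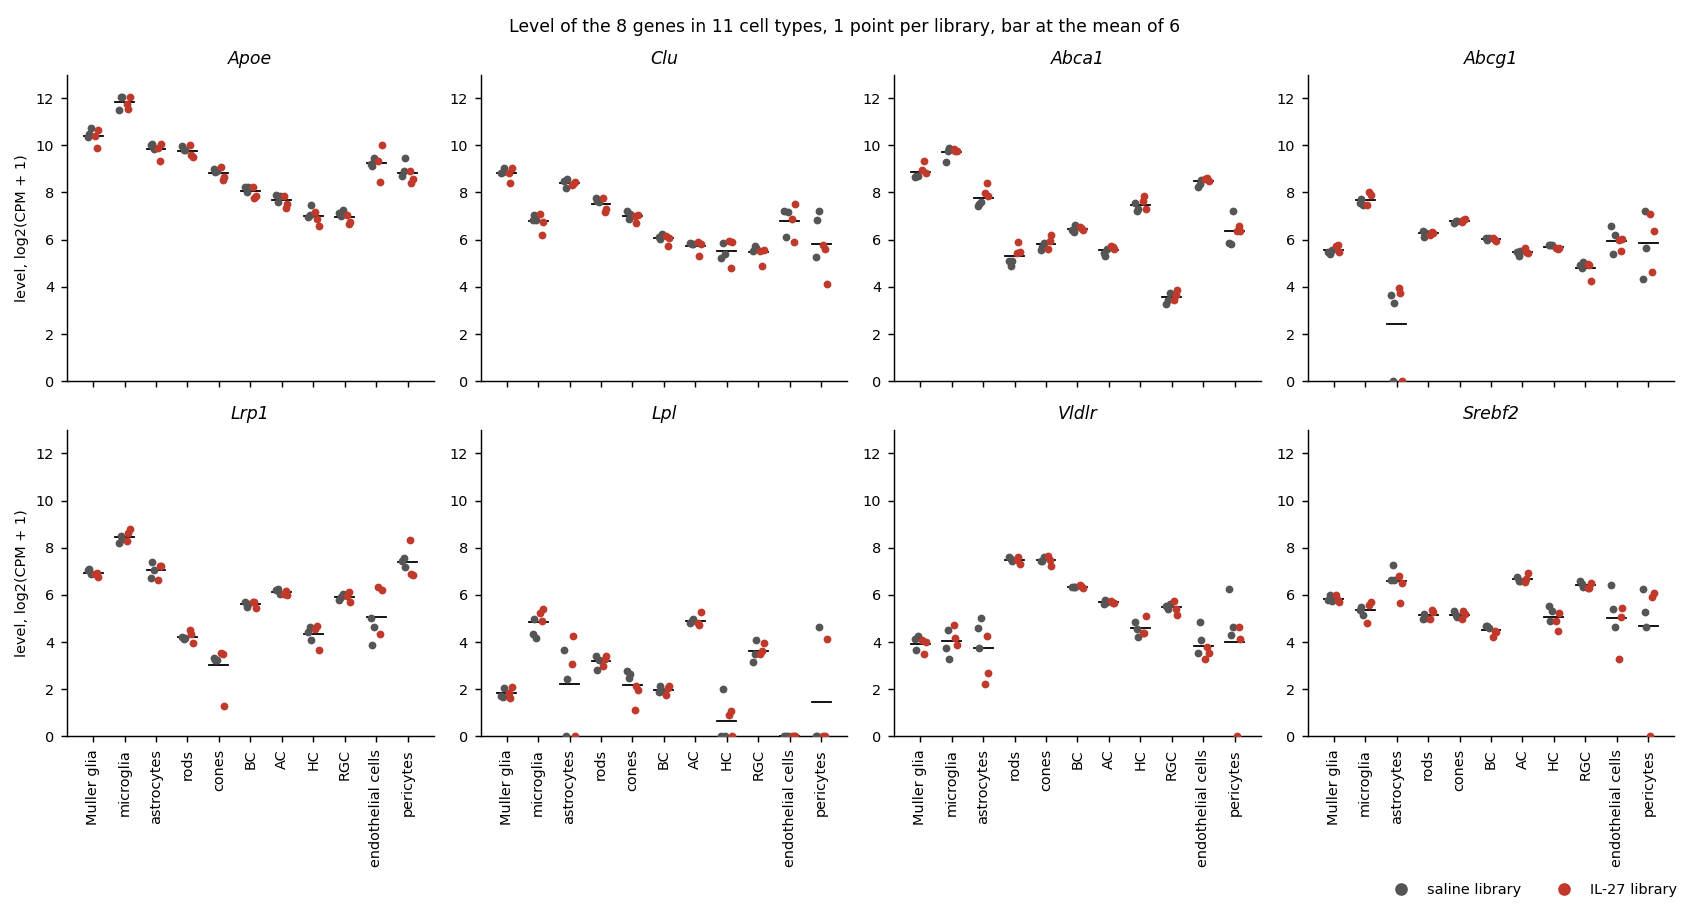
Level of each gene in each cell type as log2(CPM + 1), 1 point per library (saline grey, IL-27 red) with a bar at the mean of 6. Apoe, Abca1, Abcg1 and Lrp1 peak in microglia, Clu in Muller glia, Vldlr in rods and cones, and Lpl and Srebf2 in AC, with Lpl close to the same level in microglia.

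Free RNA can enter every droplet, and its part in the Apoe and Clu levels of neurons was not tested. The mean number of Apoe UMIs per nucleus was 1.26 in RGC, 1.27 in AC, 1.27 in BC, 1.29 in cones, 1.30 in rods, 1.32 in HC and 1.32 in pericytes, although the median UMIs of these nuclei ranged from 1266 in rods to 9942 in HC. It was 6.35 in Muller glia, 9.06 in microglia and 3.85 in astrocytes. The Apoe level of rods, 65.9% of that of Muller glia, thus rested on the same number of Apoe UMIs per nucleus as in RGC, whose level was the lowest. The 10 Muller markers stood at a median of 16.2% of their Muller level in rods, with a range of 5.0 to 112%. Clu was less even, at 0.274 UMIs per nucleus in rods, 0.277 in microglia, 0.331 in AC, 0.442 in RGC and 0.477 in HC, against 2.11 in Muller glia and 1.37 in astrocytes.

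Abcg1 was at 0.309 UMIs per nucleus in cones, 0.306 in BC, 0.273 in RGC and 0.270 in AC. It was at 0.112 in rods and 0.519 in HC, and the part of free RNA in these values was not tested. Abca1 and Vldlr did not show the even spread of Apoe. Abca1 ran from 0.0584 UMIs per nucleus in rods and 0.110 in RGC to 1.81 in HC, which are as deep as RGC, and 2.17 in Muller glia. Vldlr was at 0.263 in rods and 0.497 in cones and at 0.0410 in microglia and 0.0667 in Muller glia. When each nucleus was thinned to 1000 UMIs, which left out 4232 shallower rods (1712 saline, 2520 IL-27), 92 microglia and 39 Muller glia, Abca1 was detected in 44.8% of microglia, 32.0% of Muller glia, 27.1% of endothelial cells, 17.6% of HC and 0.96% of RGC. Vldlr was detected in 15.8% of cones and 15.2% of rods, and Apoe in 81.2% of microglia, 70.0% of Muller glia, 55.0% of rods and 14.3% of RGC. Without thinning, Apoe was detected in 97.0% of Muller glia.

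**Figure D2:**
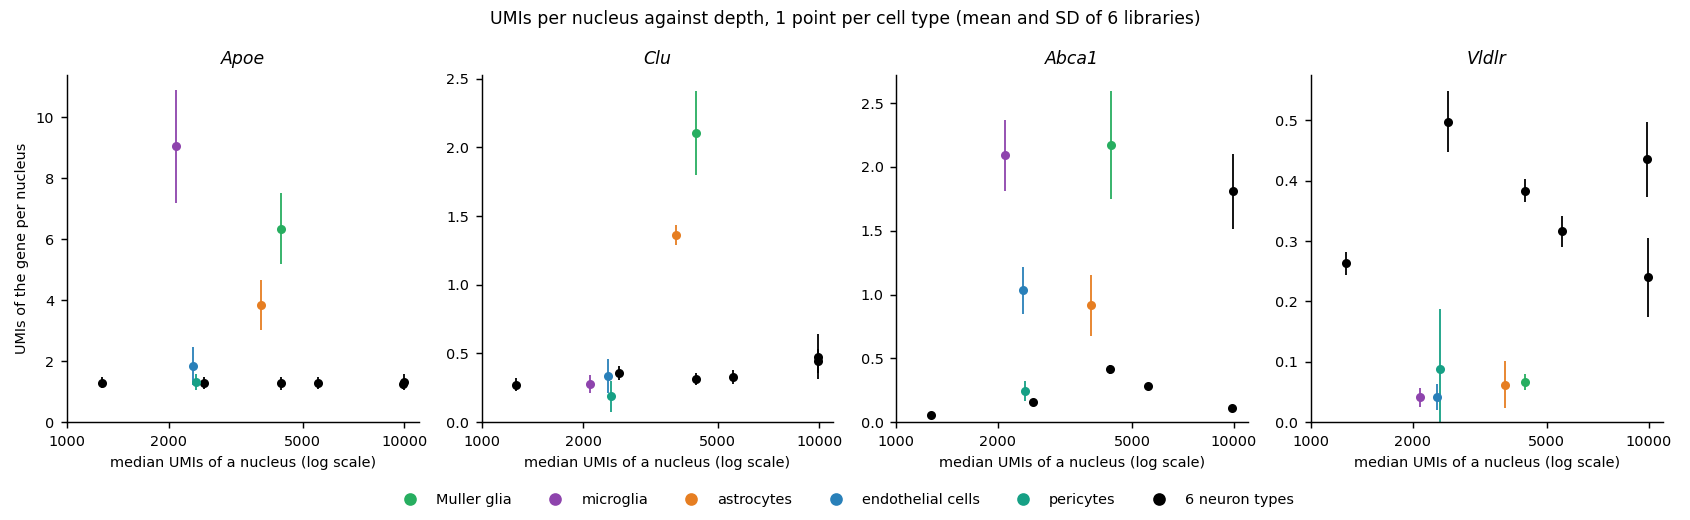
UMIs of Apoe, Clu, Abca1 and Vldlr per nucleus (y axis) against the median UMIs of a nucleus of the type (x axis, log scale), 1 point per cell type with the SD of 6 libraries. For Apoe the 6 neuron types and pericytes lie on a flat line between 1.26 and 1.32 UMIs per nucleus, while for Abca1 HC lie far above RGC of the same depth.

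Within the microglia cluster Apoe and Abca1 had different high points. Clustering left the 8 genes out, and the comparison of subclusters is a description with no test. Apoe was at 6703 ± 1388 CPM in the Ccr2 subcluster and 6385 ± 1261 CPM in the 384 nuclei of the disease-associated subcluster, which is marked by Gpnmb. In the 424 resting nuclei, marked by Sall1 and the highest level of resting markers, it was 2233 ± 551 CPM, without overlap with either. The range of resting nuclei, 1379 to 2847 CPM, overlapped that of Muller glia, 943 to 1714 CPM, unlike the range of the whole microglia cluster. Abca1 was instead highest in resting nuclei at 1314 ± 189 CPM, with no overlap with the Ccr2 subcluster (868 ± 99.4 CPM) and a slight overlap with the disease-associated one (817 ± 123 CPM). The other exporter, Abcg1, was at 304 ± 62.2 CPM in disease-associated, 244 ± 68.8 CPM in Ccr2 and 222 ± 76.8 CPM in resting nuclei, and Clu at 105 ± 28.0, 165 ± 57.0 and 98.4 ± 41.3 CPM, and the ranges of each gene overlapped. Lrp1 was at 561 ± 178 CPM in disease-associated and 481 ± 58.4 CPM in resting nuclei, which overlapped, and at 253 ± 44.0 CPM in the Ccr2 subcluster. In the Flt3 and Ccr7 subcluster Abca1 had 5 UMIs in all, or 18.6 ± 20.6 CPM, while Srebf2, at 124 ± 51.0 CPM, lay above resting nuclei (23.0 ± 11.8 CPM) without overlap.

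Lpl in AC came largely from 1 cluster. It held 1673 nuclei, 13.3% of AC (12.5 to 14.8% per library), and its leading genes were Fgd6, Tnc, Npnt, Maf and Slc26a7, with Lpl itself among the first 10. Its Lpl level was 137 ± 19.6 CPM against 11.4 ± 1.37 CPM in the other AC nuclei, a ratio of 12.0, and it supplied 47.4% of the Lpl UMIs of all retained nuclei. Abca1 was at 171 ± 13.5 CPM there against 25.6 ± 3.62 CPM in other AC, a ratio of 6.66, and Srebf2 at 188 ± 20.5 CPM against 88.4 ± 8.27 CPM, a ratio of 2.13. Vldlr followed with 67.5 ± 8.75 CPM against 48.3 ± 2.42 CPM. The cluster was chosen as the AC cluster with the highest Lpl level, so the higher Lpl there follows from the choice. Lpl, Abca1, Srebf2 and Vldlr were higher in it with no overlap of the library ranges. The same held for 1089 of 10320 genes of at least 10 CPM (10.6%). Apoe, Clu, Abcg1 and Lrp1 overlapped.

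The same AC cluster was compared with the other AC for 4 lists of the pathway. The list of sterol synthesis is not reported here for this cluster. Of the 10320 genes of at least 10 CPM, 1762 lay below the other AC without overlap. Of 16 lipoprotein receptors and adaptors 5 were below without overlap (Lrp5, Sorl1, Dab1, Dab2 and Cd36) and 3 above, Lrp4, Sort1 and the Apoe and reelin receptor Lrp8 (190 ± 18.0 CPM against 86.8 ± 5.56 CPM). Dab1, the adaptor through which Lrp8 and Vldlr signal, was far lower at 41.6 ± 3.99 CPM against 1830 ± 45.9 CPM. Mylip, the LXR target that degrades the LDL receptor family, was at 8.75 ± 3.16 CPM against 66.8 ± 5.27 CPM. It was 1 of 2 below among 19 LXR, apolipoprotein and efflux genes, with Scarb1, and Rxra was above. Of 18 lipase and fatty acid genes 4 were below (Lipc, Angptl4, Dgat2 and Acsl6) and 2 above (Acsl3 and Scd2), and of 10 genes of cholesterol movement and storage 1 was below, Soat1. These genes were named after their values were seen. Of them, Lrp5, Dab2, Cd36, Rxra, Lipc, Angptl4 and Soat1 were under 10 CPM in both sets of nuclei, so the 10320 genes do not include them. Dab2, Cd36 and Angptl4 were at 0 CPM in the cluster, against 2.36, 0.436 and 0.178 CPM in the other AC. Between treatments, Lpl in this cluster was 145 ± 9.65 CPM in saline and 129 ± 26.2 CPM in IL-27 libraries, which overlapped. Of the 8 genes, Lrp1 did not overlap, at 80.0 ± 3.79 CPM in saline and 66.6 ± 9.38 CPM in IL-27 libraries, with no test. The share of all genes that separate in this way is not given here, so it is not read as a result about Lrp1.

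**Figure D3:**
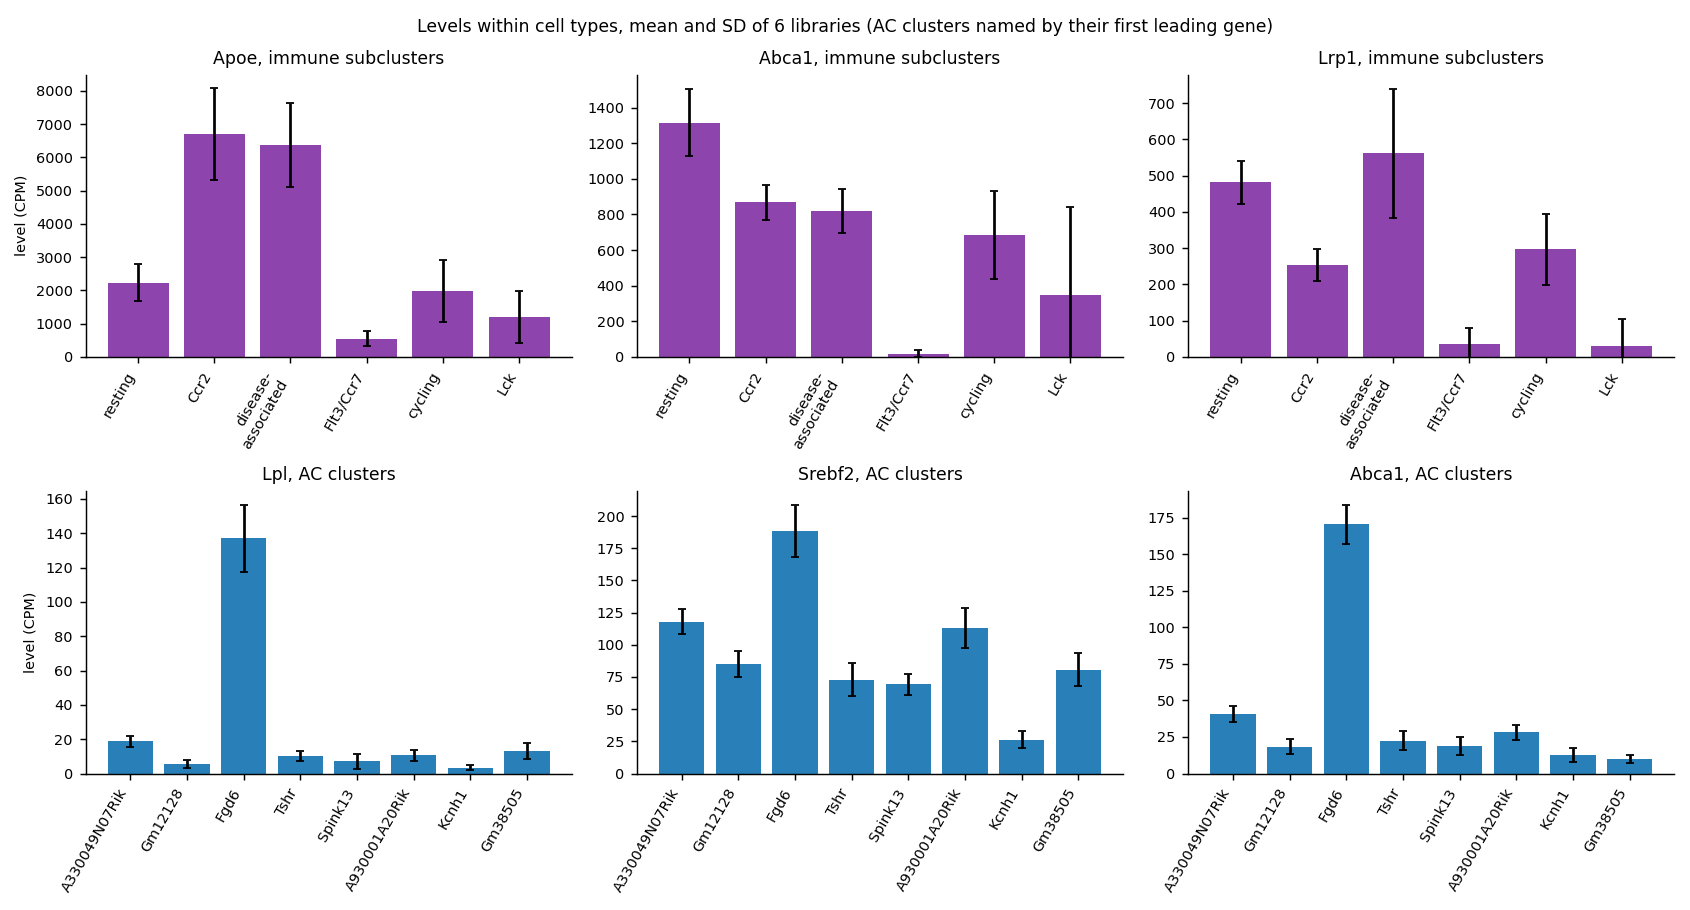
Levels (CPM, bars are the mean and SD of 6 libraries) of Apoe, Abca1 and Lrp1 in 6 immune subclusters and of Lpl, Srebf2 and Abca1 in the 8 AC clusters, each AC cluster named by its first leading gene. Apoe is highest in the Ccr2 and disease-associated subclusters and Abca1 in resting nuclei. The Fgd6 cluster, chosen for its Lpl level, exceeds all other AC clusters for Lpl, Srebf2 and Abca1.

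No gene of the 8 passed the test between IL-27 treated and saline control libraries in any cell type. Of 88 pairs of gene and type 70 had enough counts to be tested, and with edgeR's quasi-likelihood test and Benjamini-Hochberg adjustment over all genes of a type 0 were called, with 0.474 the smallest adjusted p. At an unadjusted p under 0.05 there were 6 pairs, 4 of them Abca1, and DESeq2 called 0. Over all genes, 8.96% in Muller glia, 3.01% in microglia and 3.28% in rods had such a p. The pairs lay in Muller glia, rods, astrocytes, BC, AC and RGC, 1 in each. For the last 4 types the share over all genes is not given here, so the 6 pairs are not read as an excess. The log2FC of Abca1 was above 0 in 10 of the 10 types tested (0.05 to 0.60) and that of Apoe below 0 in 10 of 11 (-0.41 to 0.14). Clu was below 0 in 9 of 10 and Lpl above 0 in 5 of 5. The types come from the same 6 libraries and are not independent of each other.

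In Muller glia 7 of the 8 genes were tested and 0 were called, beside 0.0284% of all 14089 genes, and 1 had an unadjusted p under 0.05, beside 8.96% of all genes. This was Abca1, at 405, 418 and 417 CPM in saline replicates 1, 2 and 6 and at 495, 651 and 456 CPM in IL-27 replicates 4, 5 and 10. All 3 IL-27 libraries lay above all saline libraries, with means of 534 ± 103 and 414 ± 7.48 CPM. With 3 libraries per group, complete separation in either direction has an exact permutation p of 0.1, the smallest possible. The share of all genes that separate in this way is not given here. Separation of the groups, here and below, is therefore a description and is not read as a result by itself. Summed endothelial markers in Muller glia also did not overlap, at 1561 to 1824 CPM in saline and 1841 to 1998 CPM in IL-27 libraries, and their part in the difference was not tested. The log2FC of Abca1 was 0.39 ± 0.15 (SE), with an unadjusted p of 0.0238 and an adjusted p of 0.474 in edgeR.

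The level of Abca1 also differed between the 2 clusters named Muller glia. It stood at 60.5 ± 29.3 CPM in the saline-enriched cluster and 515 ± 71.6 CPM in the other Muller nuclei, 8.51 times as high, with no overlap. Abcg1 (19.2 ± 20.0 in the cluster against 50.1 ± 2.90 CPM), Apoe (1415 ± 327 against 1394 ± 276 CPM), Clu (432 ± 173 against 477 ± 79.7 CPM) and Srebf2 (57.2 ± 12.4 against 56.1 ± 4.84 CPM) overlapped. IL-27 replicates 4 and 5 held only 12 and 6 nuclei of the cluster. In saline libraries alone, Clu was 333 ± 35.3 CPM in the cluster against 504 ± 31.7 CPM, and Abcg1 12.3 ± 4.86 against 49.6 ± 1.74 CPM. Apoe (1426 ± 235 against 1492 ± 217 CPM) and Srebf2 (60.7 ± 4.54 against 55.8 ± 5.39 CPM) were closer there. Without the cluster, Abca1 in Muller glia was 477 ± 24.9 CPM in saline and 553 ± 88.7 CPM in IL-27 libraries, which overlapped, and the log2FC was 0.21 (adjusted p 0.950 in edgeR). With the share of the cluster as a covariate the log2FC was 0.10.

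Single libraries moved this estimate. Without IL-27 replicate 10, the IL-27 library in which 13.6% of Muller nuclei lay in the cluster, the log2FC of Abca1 was 0.51 and the adjusted p 0.0370 in edgeR, the one fit in Muller glia in which a gene of the 8 was called. Of the fits of all Muller nuclei with a library left out, it also called the most genes over all genes, with counts in the closing section. With the cluster left out as well the log2FC of Abca1 was 0.30 (adjusted p 0.855 in edgeR). Without IL-27 replicate 5, the library with the highest Abca1 level, it was 0.21, and 0.06 with the cluster left out as well.

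**Figure D4:**
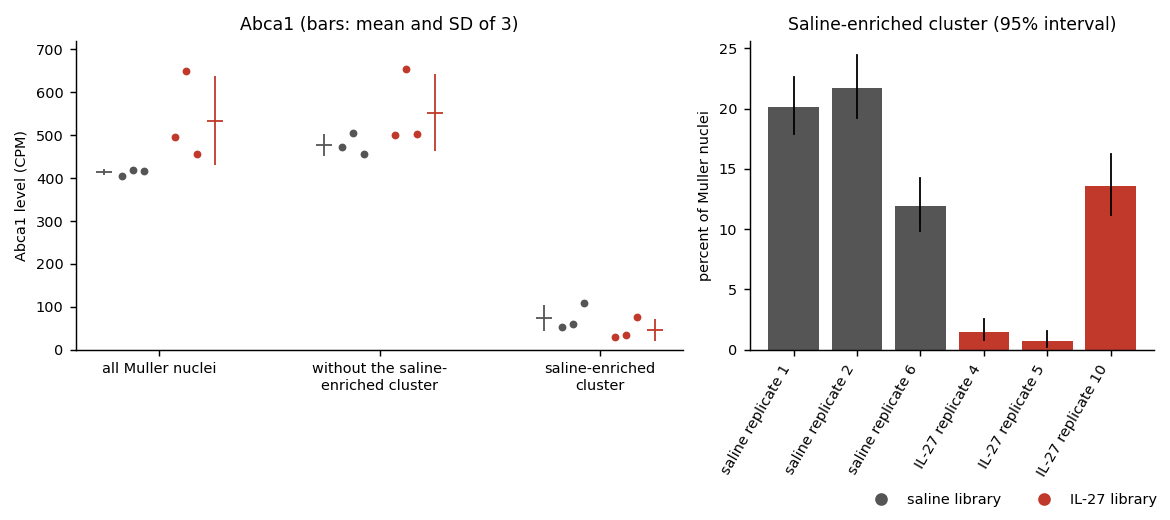
Left, Abca1 level (CPM) per library in all Muller nuclei, in Muller nuclei without the saline-enriched cluster, and in that cluster, with mean and SD of 3 libraries. Right, percent of Muller nuclei in the saline-enriched cluster per library with 95% binomial intervals (Clopper-Pearson). The groups separate in all Muller nuclei (405 to 418 against 456 to 651 CPM) and overlap once the cluster is left out.

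The carriers overlapped between the groups in Muller glia. Apoe was at 1308, 1417 and 1714 CPM in the saline libraries and 1328, 943 and 1619 CPM in the IL-27 libraries, with a log2FC of -0.18 ± 0.18. Clu was at 451, 463 and 519 CPM against 458, 336 and 532 CPM. IL-27 replicate 5, the highest library for Abca1, was the lowest for both carriers. Abcg1 had a log2FC of 0.19 ± 0.13 and Srebf2 of 0.00 ± 0.12. Without the saline-enriched cluster the log2FC was -0.21 for Apoe, -0.17 for Clu, 0.03 for Abcg1 and 0.02 for Srebf2. Lpl, at 2.08 to 3.22 CPM, was under the filter.

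In microglia all 8 genes were tested and 0 were called, beside 0% of 8996 genes, and none had an unadjusted p under 0.05, beside 3.01% of all genes. Apoe was at 2901, 4259 and 4183 CPM in saline and 3436, 2967 and 4179 CPM in IL-27 libraries, and Abca1 at 621, 863 and 936 CPM against 926, 876 and 861 CPM. Both overlapped, with a log2FC of -0.10 ± 0.20 and 0.14 ± 0.17. Lpl had the largest log2FC, 0.63 ± 0.33 (unadjusted p 0.0740 in edgeR), from 19.5, 30.6 and 17.2 CPM to 36.7, 29.0 and 41.7 CPM, with 1 saline library inside the IL-27 range. The exporter Abcg1 had 0.23 ± 0.18 and the receptor Lrp1 0.22 ± 0.17. In the resting, disease-associated and cycling subclusters alone, Abca1 had 0.14, Lpl 0.36 and Abcg1 0.40, the last with an unadjusted p of 0.0461 and an adjusted p of 0.999 in edgeR. The disease-associated subcluster made up 21.5 ± 4.14% of the cluster in saline and 25.9 ± 6.88% in IL-27 libraries (exact permutation p 0.6, two-sided; the smallest possible is 0.1).

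In rods 8 genes were tested and 0 called, beside 0.00736% of 13593 genes, and 1 had an unadjusted p under 0.05, beside 3.28% of all genes. Abca1 was at 33.4, 28.2 and 33.5 CPM in saline and 42.1, 59.6 and 43.8 CPM in IL-27 libraries, again without overlap, with a log2FC of 0.60 ± 0.15 (unadjusted p 0.00121, adjusted p 0.9998 in edgeR). The Abca1 level of rods was 8.38% of that of Muller glia (6.74 to 9.61% per library), below the median of the Muller markers in rods, and IL-27 replicate 5 was the highest library in both types. The part of free RNA in this difference was not tested. Summed Muller markers in rods were 689 to 765 CPM in saline and 609 to 723 CPM in IL-27 libraries. Summed microglia markers in rods were 209, 172 and 171 CPM in saline and 171, 259 and 207 CPM in IL-27 libraries, and IL-27 replicate 5 was again the highest. With no filter on low counts, Abca1 in rods was called (log2FC 0.60, adjusted p 0.0246 in edgeR). More genes were called over all genes in that fit than in the main fit, with counts in the closing section. Vldlr, whose level was highest in rods, was 183 ± 8.72 CPM in saline and 176 ± 18.1 CPM in IL-27 libraries (log2FC -0.06 ± 0.10).

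In astrocytes 5 genes were tested and 0 called, beside 0% of genes. Abca1 was at 169, 180 and 195 CPM in saline and 248, 336 and 227 CPM in IL-27 libraries, without overlap, with a log2FC of 0.53 ± 0.22 (unadjusted p 0.0272, adjusted p 0.985 in edgeR) from 34 to 67 nuclei per library. In cones 7 genes were tested and 0 called, beside 0.00911% of genes. In AC 8 were tested and 0 called, beside 0.00586%, and Abca1 was 42.8 ± 4.94 against 49.8 ± 2.48 CPM. In BC 8 were tested and 0 called, beside 0%, and Srebf2 was lower in all IL-27 libraries (17.9, 21.2 and 20.4 CPM) than in saline (24.6, 24.5 and 23.3 CPM), with a log2FC of -0.27 ± 0.11 (unadjusted p 0.0295, adjusted p 0.9995 in edgeR). None were called among 7 tested in HC, 8 in RGC, 3 in endothelial cells and 1 in pericytes, each beside 0% of genes. In RGC, Apoe had a log2FC of -0.27 ± 0.12.

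**Figure D5:**
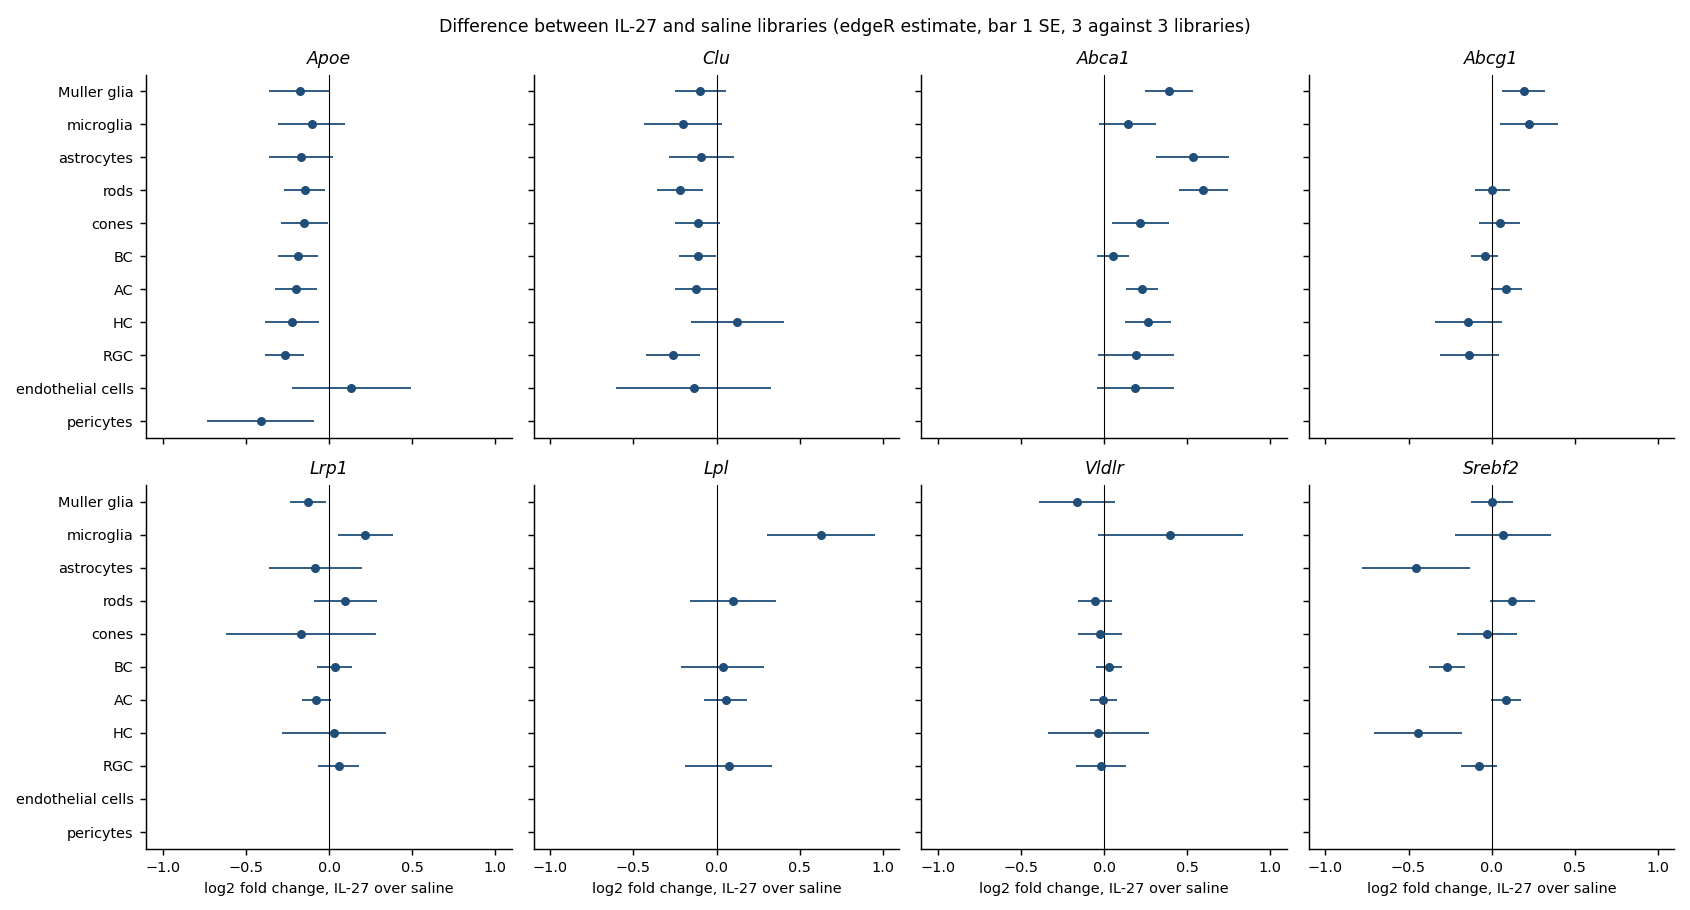
Log2 fold change of each gene between 3 IL-27 and 3 saline libraries in each cell type in which it was tested (edgeR estimate, bar 1 SE). Abca1 lies right of 0 in 10 types and Apoe left of 0 in 10 of 11, and 0 of the 70 estimates passed an adjusted p of 0.05.

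The response to IL-27 was also compared between microglia and Muller glia with an interaction term in edgeR. Of the 8 genes 0 differed at an adjusted p of 0.05, beside 0.0542% of 14747 genes, and 0 had an unadjusted p under 0.05. The difference was 0.35 ± 0.19 on the log2 scale for Lrp1 (unadjusted p 0.0860) and -0.21 ± 0.20 for Abca1, which became -0.03 without the saline-enriched cluster. DESeq2 called 0 as well.

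The wider pathway was followed with 5 lists in Muller glia, microglia and rods, and edgeR called 0 genes of any list. Of 21 genes of sterol synthesis and its feedback 19 were tested in Muller glia, 16 with a log2FC below 0 and a median of -0.19, beside 0.00 over all genes. None had an unadjusted p under 0.05. Hmgcs1, which makes the precursor of mevalonate, was lower in all IL-27 libraries (13.1 ± 2.03 against 16.6 ± 0.425 CPM), as was Nsdhl (15.9 ± 2.68 against 20.2 ± 0.257 CPM). Without the saline-enriched cluster 9 of the 19 were below 0 and the median was 0.00, with a log2FC of -0.14 for Hmgcs1 (-0.33 with it) and -0.34 for Nsdhl (-0.32 with it). In microglia 7 were tested (median 0.01) and in rods 19 (median 0.01), where 1 had an unadjusted p under 0.05.

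Among 16 lipoprotein receptors and adaptors 14 were tested in Muller glia. Lrp2, also called megalin, was at 70.5, 77.9 and 76.6 CPM in saline and 41.4, 50.1 and 44.2 CPM in IL-27 libraries, without overlap, with a log2FC of -0.71 ± 0.11 (adjusted p 0.113 in edgeR). DESeq2 called this gene, the only one of the lists. In Muller glia DESeq2 also called more genes over all genes than edgeR, with counts in the closing section. Without the saline-enriched cluster the log2FC was -0.46 (adjusted p 0.837). Lrp1b was lower as well, at 15.6 ± 2.23 against 23.5 ± 6.75 CPM, and had a log2FC of -0.14 without the cluster. In microglia 15 were tested, and Cd36, a scavenger receptor and fatty acid translocase, was at 36.3, 25.2 and 34.5 CPM in saline and 49.4, 60.1 and 104 CPM in IL-27 libraries, without overlap (log2FC 1.09 ± 0.30, unadjusted p 0.00280, adjusted p 0.9995 in edgeR). The endocytic adaptor Dab2 had a log2FC of -0.65 ± 0.27 there, with overlap. In rods 12 were tested, with 0 at an unadjusted p under 0.05.

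The other 3 lists had medians near 0. Of the LXR, apolipoprotein and sterol efflux genes 15 were tested in Muller glia (median 0.09), 11 in microglia (0.01) and 13 in rods (0.09), with 0 at an unadjusted p under 0.05. The sterol 27-hydroxylase Cyp27a1 had a log2FC of 0.24 in Muller glia (0.04 without the saline-enriched cluster) and the exporter Abca7 of 0.40 in microglia, where the IL-27 libraries lay above saline (45.6 ± 5.56 against 34.2 ± 3.05 CPM). The apolipoprotein Apod had 1.38 ± 0.69 in Muller glia (0.64 without the cluster), where 1 library, IL-27 replicate 10, was at 20.2 CPM and the others at 2.0 to 4.16 CPM. The oxysterol receptor gene Nr1h2 had 0.59 in microglia, with overlap. Of the lipase and fatty acid genes 13, 9 and 11 were tested in the 3 types (medians 0.04, 0.00 and 0.08). Dgat1, which makes triglyceride, had 0.46 ± 0.18 in Muller glia (0.46 without the cluster) and -0.81 ± 0.39 in microglia, a difference (microglia minus Muller glia) of -1.27 ± 0.42 with an unadjusted p of 0.00719 and an adjusted p of 0.638 in edgeR. The acyl-CoA synthetase Acsl6 had 0.22 in Muller glia (0.09 without the cluster), and the lipid droplet gene Plin2 0.27 in microglia. Of 10 genes of cholesterol movement and storage 10, 9 and 9 were tested (medians 0.00, 0.13 and 0.04). The lysosomal lipase gene Lipa had 0.41 in microglia and -0.30 in Muller glia, where it was 0.11 without the saline-enriched cluster. Osbp had 0.20 in Muller glia (0.15 without the cluster) and Gramd1b 0.28 in microglia, all short of the threshold.

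Genes whose levels over the 11 types were most like those of each member were listed by Pearson's r of mean log2(CPM + 1), among 15127 genes. These values describe 11 points that share libraries and depth. Apoe was most like Dapp1 (0.97), Odr4, the lysosomal protease gene Ctsd, Tmem179b and Plin3. Clu was most like Fxyd1 (0.98), the glutamine synthetase gene Glul, Mlc1, Gldc and Lman1. Abca1 was most like Nlrc5 (0.91), Cd274, Ddx60 and Rnf213. Genes close to Vldlr were Lancl2 (0.97), Gm26954, Med24 and Bbs4, and Lrp1 most like Specc1 (0.95), Plxdc2, Snx4 and Fnbp1. Lpl came nearest to R3hdm2 (0.92), Capn15, Galc, Mvd and Stap1, Srebf2 to Cdh6 (0.92), Gm17171, Neto2, Sytl2 and Etl4, and Abcg1 to Kat7 (0.91), Ubl7, Ptcd1, Zfp3 and Gpalpp1.

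In the GENCODE M21 annotation Abcg1 overlaps Gm25447 and Srebf2 overlaps Gm49502 and Mir33 on the same strand, and Lrp1 overlaps Gm16217 on the other strand. How reads in these overlaps were counted is not given in the sources used here, so the levels of these 3 genes are uncertain to that extent. The other 5 genes overlap none.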

How the data were processed

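The deposited values are raw UMI counts per gene and barcode, which the authors made with Cell Ranger (9.0.1 per the labels, 8.0.1 per the file headers) and analysed further in Seurat 5.2.1. The genome build of the files is not given in the sources used here. The authors' integration and atlas annotation were not used here, and cell types were rebuilt.

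Of 56634 barcodes, 56205 passed limits of over 500 UMIs, 200 or more genes and less than 5% mitochondrial UMIs, and 3971 doublets were removed by Scrublet score at an 8% rate. Clustering used scanpy 1.11.5 with 2000 variable genes without the 8 members, 25 components, 20 neighbours and Louvain resolution 0.25, without integration. Counts of 51336 nuclei within 2 median absolute deviations of the log2 total were summed per library and type and tested with edgeR 4.0.16 (filterByExpr at 10 counts, TMM, quasi-likelihood, threshold 0.05 after Benjamini-Hochberg adjustment), with DESeq2 1.42.0 and other filters, scalings and left-out libraries as alternatives. Intervals are exact binomial and cover counting error only.

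All 8 members are given in every type. Of the pathway lists, genes past the threshold or else the 2 with the smallest p in Muller glia and in microglia are named, and for likeness the 5 genes nearest to a member, apart from a few genes that are not reported here. Members and lists were chosen with earlier results of these data known. On simulated data with 200 genes changed by a log2 of 1.5, edgeR recovered 95% of them in Muller glia (14089 genes), 82.5% in microglia (8996) and 92% in rods (13593). False calls numbered 6, 11 and 12. The largest log2FC of the 8 genes was 0.63, so this recovery does not tell how often changes of their size would be called. Differences in cluster shares between libraries were not simulated. No pigmented epithelium cluster met the marker rule.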

Additional observations from a re-analysis of the deposited data

How the results depend on the processing

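Counts of the 8 genes called were recomputed in 199 settings, and 197 gave 0 as reported. The other 2 were Muller glia without IL-27 replicate 10 and rods with no filter on low counts, each with 1 call, Abca1 (in rods log2FC 0.60, adjusted p 0.0246 in edgeR). Leaving out 1 library gave 0 to 1 in Muller glia. The sign of a log2FC changed in 33 of 440 settings, 13 of them Srebf2 in Muller glia, and no call reversed. Abca1 kept its sign in all 25 settings in Muller glia and all 16 in rods, and changed it in 1 of 18 in microglia.

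Over all genes, 4 were called in Muller glia, against 2 at 1% mitochondrial counts, 89 by DESeq2, 2 with library totals, 246 with no filter, 2 with a filter at 30 counts, 0 with Xist as a covariate and 16 with the saline-enriched share as one. Single libraries left out gave 0 to 436, the highest without IL-27 replicate 10, the fit that also called Abca1. Added after seeing the data were fits without the saline-enriched cluster by DESeq2 (17) and with 1 library left out (0 to 7), and the resting, disease-associated and cycling subclusters alone. Microglia gave 0, against 1 without doublet removal, 24 with no filter and 0 to 2 with 1 library left out. Rods gave 1, against 2 by DESeq2, 37 with no filter, the fit that also called Abca1, and 0 to 1 with 1 library left out. The cause was not tested. Pericytes were not run without doublet removal, where their cluster held the saline-enriched nuclei.

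The type with the highest share of nuclei with a UMI was the same without thinning for 3 of 8 genes. Lpl had the fewest UMIs of the 8 genes, 3148. No paired analysis was possible because the groups share no replicate number.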

Other observations

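BC clusters differed from each other in several of the genes, as a description with no test. Their mean levels ran from 16.6 to 79.7 CPM for Lrp1 and from 15.0 to 32.9 CPM for Srebf2. Single clusters are described for Vldlr and Abca1 only. Vldlr was at 158 ± 17.5 CPM (SD, n = 6) in a BC cluster of 526 nuclei led by Igfn1 and Sec1, and at 53.5 to 92.4 CPM in the other BC clusters. Abca1 was at 121 ± 10.4 CPM in the Prkca cluster of 3310 nuclei and at 21.2 ± 2.34 CPM in the Grik1 and Lama2 cluster of 1094 nuclei.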
